A study of Mus musculus with 60 samples.

Results

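Heat shock proteins are chaperones that bind unfolded or damaged proteins and help them to refold. The 10 genes described here encode those of the cytosol and of mitochondria: Hspa1a, Hspa1b, Hspa8, Hsp90aa1, Hsph1, Hspb1, Cryab, Dnajb1, Hspd1 and Hspe1. Their members were taken as every Affymetrix probe set whose annotation names exactly 1 gene symbol, that symbol being one of the 10. This gave 17 of 36899 probe sets, 13 on array type A, 1 on type B and 3 on type C. Of these, 12 were bright enough to be tested, among 23062 tested in all, and each of the 10 genes had at least 1.

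RNA came from whole mammary glands, or from fat pads, of 20 ovariectomized mice, animals without the ovaries that make estrogen and progesterone. The mice were injected intraperitoneally, daily for 4 days. E mice (4 animals) received 2 µg of estrogen, named 17-beta-estrogen in the titles of the E+P groups. P mice (4 animals) received 1 mg of progesterone and E+P mice (5 animals) both hormones, while V mice (4 animals) received 100 µl of sesame oil. E+P CFP samples were fat pads free of epithelium from 3 mice given both hormones; the design text gives them as the means to tell the response of the stroma apart. The labels give no age or strain, and the lymph nodes had been removed from the glands. For V samples 1 label field mentions progesterone where the title and the protocol of treatment say sesame oil; the title was used. The titles call the animals of a group biologic replicates.

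In unstressed cells the chaperones made at all times, such as Hspa8, assist newly made proteins, and heat shock factors raise the inducible ones when unfolded proteins accumulate. These factors bind heat shock elements, short inverted repeats of GAA and TTC upstream of the genes. In tissues that respond to steroid hormones, Hsp70 and Hsp90 proteins are also known for holding the estrogen and progesterone receptors in a form that can bind hormone. Inside mitochondria, Hspd1 and Hspe1 form a chamber in which imported proteins fold.

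The upstream sequences of 3 genes are shown because Hspa1a and Hspa1b carry the largest differences described below and Hspb1 gives a contrast. They are the 250 bases before the annotated start, from RefSeq on GRCm38.p6, printed 5′ to 3′ on the gene's own strand, with heat shock elements (GAANNTTC or TTCNNGAA) in capitals.
Hspa1a, minus strand, chr17:34972157-34972406: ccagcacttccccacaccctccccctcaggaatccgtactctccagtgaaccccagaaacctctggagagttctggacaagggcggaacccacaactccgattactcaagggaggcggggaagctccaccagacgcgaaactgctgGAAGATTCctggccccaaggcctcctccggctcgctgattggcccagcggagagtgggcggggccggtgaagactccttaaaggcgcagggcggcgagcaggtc
Hspa1b, minus strand, chr17:34959239-34959488: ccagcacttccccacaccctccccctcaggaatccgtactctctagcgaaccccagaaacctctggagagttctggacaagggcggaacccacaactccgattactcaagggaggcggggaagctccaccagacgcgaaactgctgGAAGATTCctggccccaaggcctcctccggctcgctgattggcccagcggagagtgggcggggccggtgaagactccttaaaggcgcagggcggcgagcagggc
Hspb1, plus strand, chr5:135887669-135887918: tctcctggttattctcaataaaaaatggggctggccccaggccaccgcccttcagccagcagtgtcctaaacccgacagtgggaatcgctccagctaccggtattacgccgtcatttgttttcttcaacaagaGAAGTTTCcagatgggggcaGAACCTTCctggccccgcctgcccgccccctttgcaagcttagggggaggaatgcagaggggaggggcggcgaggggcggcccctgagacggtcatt

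The Hspa1a and Hspa1b genes lie 10120 bases apart on chromosome 17 and are near-identical copies. Their windows of 300 bases, from 250 before to 50 after the start, were the same at 296 bases (98.7%). The differences were C44T, T47C, T249G and C276T, with the Hspa1a base first, the position counted from 1 at the window's 5′ end and the Hspa1b base last. Both hold the same single element, from 104 to 97 bases before the start. Since the copies are so alike, signal on either probe set can come in part from the other gene, and how much was not tested.

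Elements of 3 further genes are shown with 5 bases on either side because they join several units or are shared between genes, with the capitals marking the units. That of Hsph1 lies after the start, at bases 16 to 28 from 1 annotated start or 37 to 49 from another. A further Hsph1 element of 8 bases, not shown, lies 54 to 47 or 33 to 26 bases before these starts.
Hsph1, minus strand, chr5:149636283-149636305: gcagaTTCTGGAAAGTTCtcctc
Hspd1, minus strand, chr1:55088054-55088081: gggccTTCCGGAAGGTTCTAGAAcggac
Hspe1, plus strand, chr1:55088054-55088081: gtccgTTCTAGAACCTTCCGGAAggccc
Hspd1 and Hspe1 run in opposite directions and overlap by 96 bases at their 5′ ends. Their 18-base element is 1 stretch of chromosome 1 read on either strand. It lies outside that overlap and within the annotated Hspd1 gene. For Hspe1 it stands 89 to 72 bases before the start, and for 1 annotated start of Hspd1 144 to 127 bases before it. The window of the other Hspd1 start held no element. Promoter windows were at hand for 7 of the 10 genes, and 6 of them held an element; the window of Dnajb1 held none. Over all 32851 mouse windows, 7.86% held GAANNTTC and 8.52% held TTCNNGAA. The 3-unit forms, in which a further GAA or TTC follows after another pair of bases, contain the shorter ones, and 1 is the other's reverse complement. They stood in 0.603% of all windows and in those of Hsph1, Hspd1 and Hspe1. Both strands were searched, also for the palindromic estrogen response element (GGTCA and TGACC with any 3 bases between, 0.070% of all windows) and for TATAAA (13.6%), and none of the 7 genes had either of these letters in its windows. CCAAT, in 37.4% of all windows, was in those of Hspa1a, Hspa1b, Hsph1, Dnajb1 and Hspd1. A match describes the letters only.

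Between whole glands and fat pads 3 of these genes passed the test, and between hormone groups none did; the 2 kinds of difference were not tested against each other. Hspa1b and Hspa1a, the stress-inducible Hsp70 pair, rose in E+P glands over E+P CFP fat pads by 5.96-fold and 2.24-fold, and Hspd1, the mitochondrial Hsp60, fell by 0.57 on the log2 scale. These were 3 of 12 tested probe sets (25%), against 7.9% of all probe sets tested in this comparison; 2 of the 12 were higher and 1 lower, where 5.23% of all were higher and 2.68% lower. At an unadjusted p below 0.05 there were 4 of 12, beside 20.1% of all. Probe sets whose groups did not overlap were also 4 of 12, those of Hspa1b, Hspa1a and Hspa8 higher and Hspd1 lower, beside 14.9% of all (8.42% higher and 6.47% lower). None of the 12 passed with limma in E, P or E+P glands against V, in E+P against E or P, or in the interaction of the hormones. The adjusted test called 0.178%, 0%, 0.46%, 0.143%, 0.351% and 0.0737% of all probe sets in these 6 comparisons, in that order. At an unadjusted p below 0.05 there were 2, 2, 3, 2, 2 and 2 of the 12, where 12.1%, 8.05%, 10.7%, 9.95%, 11.4% and 11.7% of all were. Calls were made with limma at a Benjamini-Hochberg adjusted p below 0.05 over all tested probe sets. All values below are signals from the MAS5 software, in scaled units that cannot be set against those of another probe set.

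**Figure D1:**
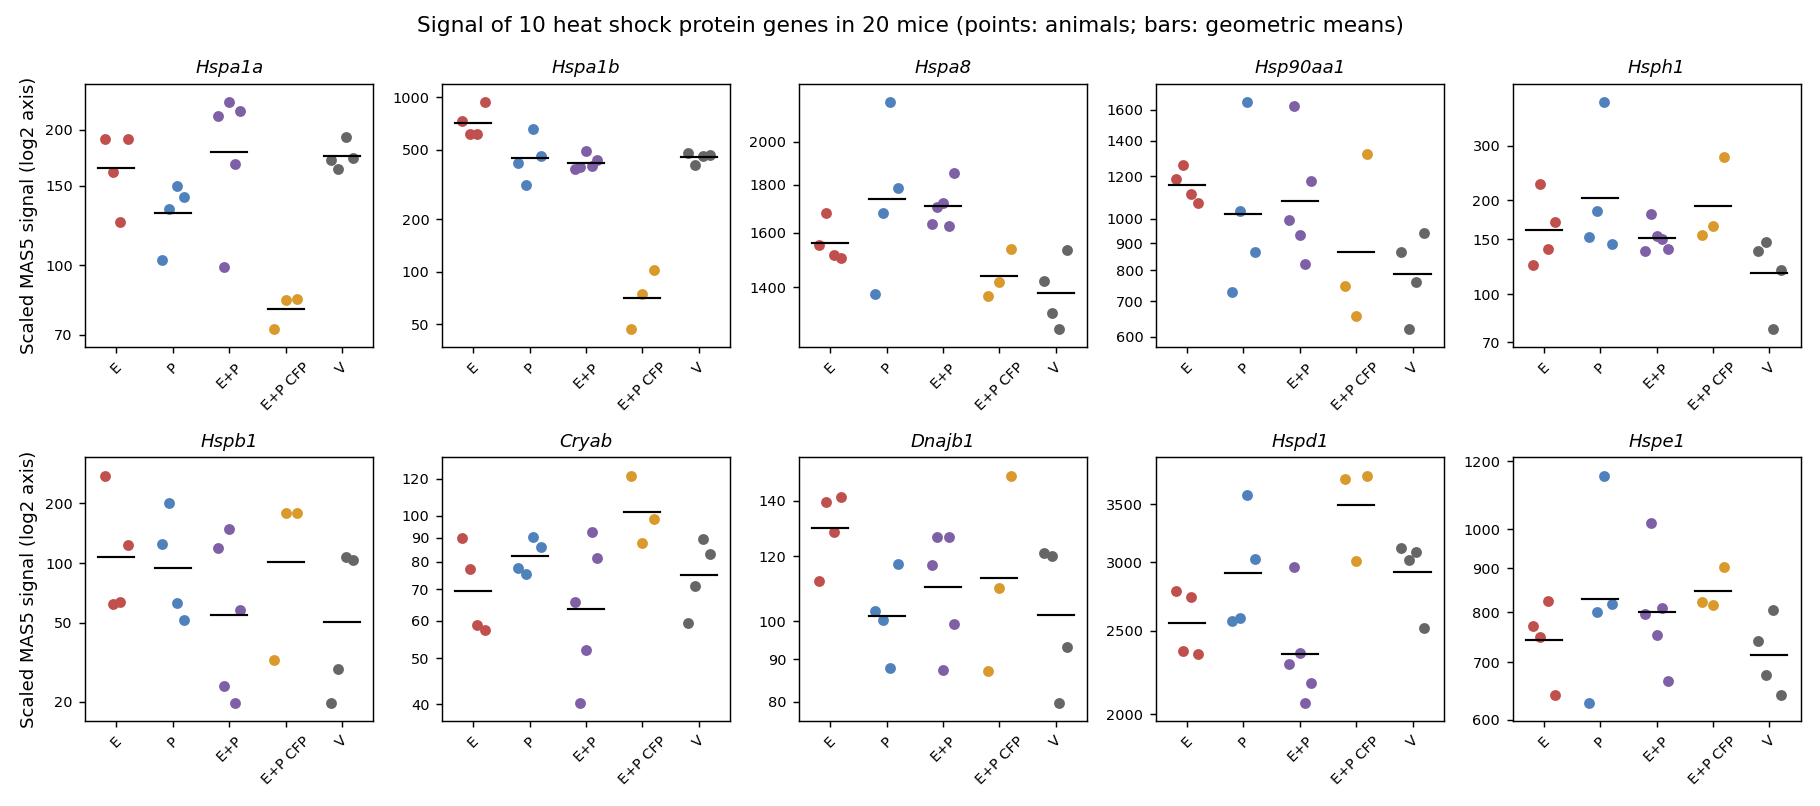
Scaled MAS5 signal (log2 axis) of the 10 genes, 1 panel a gene, in each animal of the E, P, E+P, E+P CFP and V groups; points are animals, bars are geometric means, and dim values stand at the floor of their array type. Hspa1a and Hspa1b are lowest in the 3 fat pads, and P 3 is the highest of 20 animals for 4 genes.

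Hspa1b had signals of 387, 400.5, 491, 407 and 437 in E+P glands, against 46.9, 74 and 103 in E+P CFP fat pads. The groups did not overlap, and the dimmest gland, at 387, was far above the brightest fat pad, at 103. The log2 difference was 2.58 ± 0.22 (SE, limma, adjusted p = 6.1e-08). The fat pads were also lower than V glands (480.3, 407, 464 and 467), with a log2 difference of -2.68 (SE 0.23, limma, adjusted p = 9.74e-08). That comparison changes the tissue and the hormones together, so the 2 cannot be told apart in it, and it shares the fat pads with the first.

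Hspa1a had signals of 215, 99.3, 231, 168 and 220.3 in E+P glands, against 72.1, 83.7 and 84.1 in E+P CFP fat pads. The groups did not overlap, although E+P 2 at 99.3 lay close to the fat pads and well below the other E+P glands. The log2 difference was 1.16 ± 0.22 (SE, limma, adjusted p = 0.00181). V glands, at 171, 164, 192 and 173, were brighter still than every fat pad. The fat pads were lower than V with a log2 difference of -1.13 (SE 0.23, limma, adjusted p = 0.00667). Hspa1b and Hspa1a were the 2 of 12 probe sets (16.7%) that passed in E+P CFP against V, where 3.07% of all probe sets did and 2.38% were lower. At an unadjusted p below 0.05 there were 3 of 12 there, beside 14.1% of all. Groups did not overlap for 4 of 12, beside 13% of all: Hsph1 and Hspe1 were wholly higher in the fat pads (5.64% of all) and the Hsp70 pair wholly lower (7.4%). A second Hspa1a probe set on type C was dim, at the floor in 17 of 20 animals, and was not tested.

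Hspd1 had signals of 2288, 2961, 2353, 2062 and 2175 in E+P glands, against 3751, 3012 and 3781 in E+P CFP fat pads. The groups did not overlap, but E+P 2 at 2961 lay just below E+P CFP 2 at 3012. The log2 difference was -0.57 ± 0.14 (SE, limma, adjusted p = 0.0111). A second, dimmer probe set of Hspd1 carries a special suffix, which ranked below a plain suffix when 1 probe set a gene was chosen. This second probe set gave 124, 61.9, 109, 85.0 and 138 in E+P glands, against 80.0, 93.1 and 122 in E+P CFP fat pads. Those values overlapped, with a log2 difference of 0.04 ± 0.42 (SE, limma, adjusted p = 0.976), so the call rests on 1 of the gene's 2 tested probe sets. It was also lost without E+P CFP 1 (-0.52, limma, adjusted p = 0.072) and without E+P CFP 3 (-0.52, limma, adjusted p = 0.0598). Against V glands the fat pads stood 0.26 higher on the log2 scale for the brighter probe set (SE 0.14, limma, adjusted p = 0.45).

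The other 7 genes did not pass the test between glands and fat pads. Cryab, the small heat shock protein alphaB-crystallin that is abundant in lens, heart and muscle, had the smallest adjusted p among them. It was read by a probe set whose suffix marks probes shared with related sequences, since its plain probe set was at the floor in 16 of 20 animals and was not tested. Its signals were 65.7, 40.2, 52.1, 92.3 and 81.3 in E+P glands, against 122, 87.8 and 98.4 in E+P CFP fat pads. The groups overlapped by 1 gland, E+P 4, and the log2 difference was -0.68 ± 0.24 (SE, limma, adjusted p = 0.101). It passed with median scaling (-0.91, limma, adjusted p = 0.0313), with quantile normalization (-0.85, limma, adjusted p = 0.0469) and without E+P 4 (-0.81, limma, adjusted p = 0.0437), and was -0.07 with the skeletal muscle score in the model (limma, adjusted p = 0.982). Hspe1, the Hsp10 lid of the chamber that Hspd1 forms, had 796, 1018, 752, 809.9 and 666 in E+P glands, against 822, 815 and 904 in E+P CFP fat pads. Its log2 difference of -0.08 had a 95% interval from -0.41 to 0.25 (limma, adjusted p = 0.844), and whether it differed from that of Hspd1 was not tested. For Hspa8, Hsp90aa1, Hsph1, Hspb1 and Dnajb1 the log2 differences ran from -0.89 for Hspb1 to 0.32 for Hsp90aa1. Over all 10 genes, at 1 probe set each, the median log2 difference was -0.06, beside 0.02 over the 12232 genes tested.

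**Figure D2:**
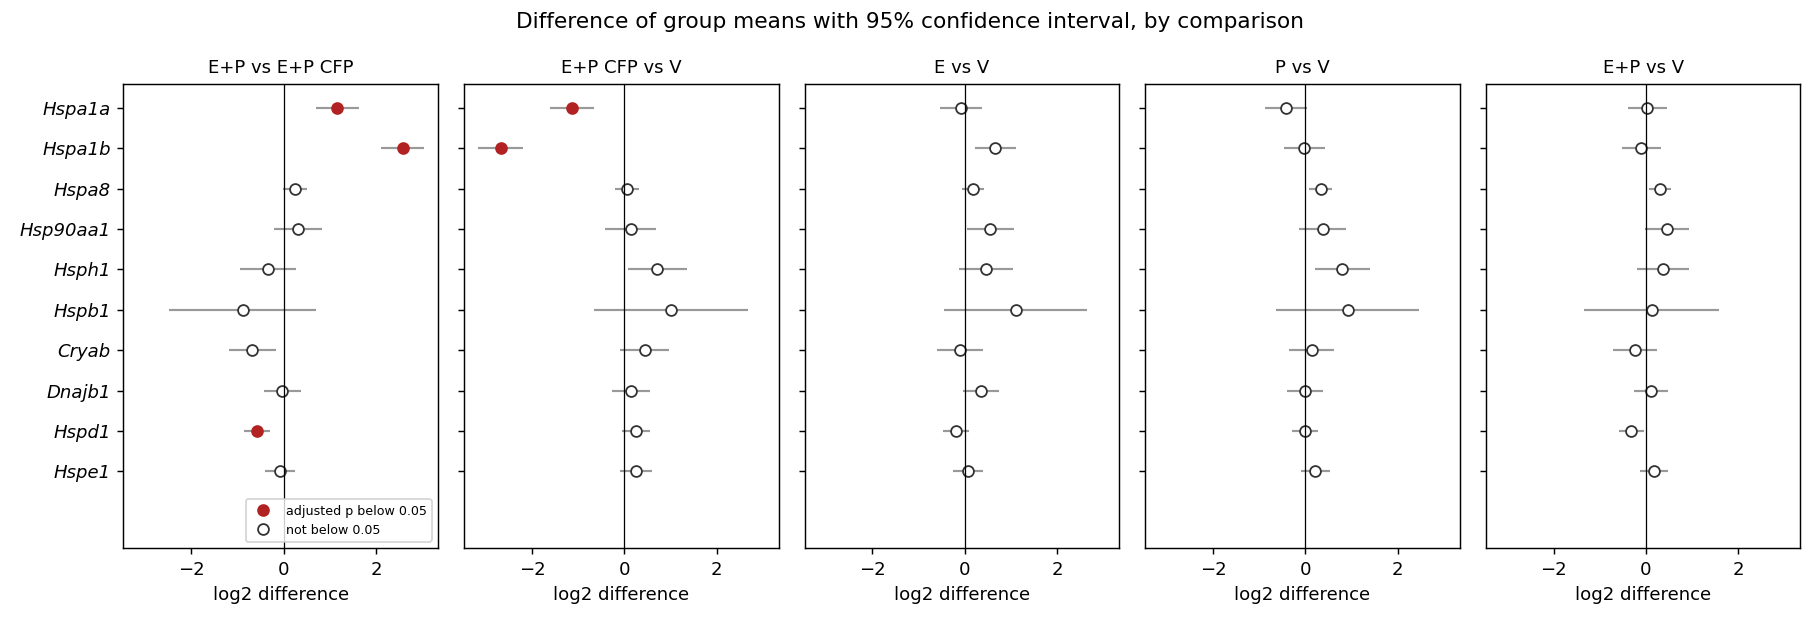
Differences of group means on the log2 scale with 95% confidence intervals for the 10 genes (1 probe set each), in 5 comparisons, each panel's first group minus its second. Filled points passed an adjusted p of 0.05: Hspa1a and Hspa1b in both comparisons with fat pads, and Hspd1 in E+P against E+P CFP.

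The fat pads differed from the glands in the makeup of the tissue. In bulk RNA, fewer cells of a type and less RNA per cell cannot be told apart. Of 11 tested luminal epithelium markers, all 11 were higher in E+P glands (limma, adjusted p below 0.05), and Krt8, Krt19, Epcam, Cldn7 and Elf5 were at the floor in all 3 pads. The summed luminal signal was 5211 to 8016 in E+P glands, against 231 to 279 in E+P CFP fat pads. Skeletal muscle markers went the other way, all 14 tested being lower in E+P glands. Their summed signal was 1152 to 2439 in E+P glands, against 7322 to 12087 in E+P CFP fat pads, and 1 E gland (E 1) reached 6640. Adipocyte markers summed to 19042 to 26311 in E+P glands, against 34012 to 38576 in E+P CFP fat pads, with 6 of 9 tested markers lower in E+P glands by the same test. In E+P glands 8 of 9 mitosis markers and 3 of 6 basal and myoepithelial markers were higher. Of the 10 immediate early genes, a list that holds Fos and Jun, 3 were higher in E+P glands. The immediate early score was 0.12 to 0.43 in E+P glands, against -0.41 to -0.11 in E+P CFP fat pads. Brown adipocyte markers (1 of 6) and macrophage markers (1 of 5) had 1 higher, endothelial markers 1 of 8 lower and lymphocyte markers none of 12 called. The part of these differences in the results for Hspa1a, Hspa1b and Hspd1 was not tested. With a skeletal muscle score as a term in the model, the log2 difference of Hspa1b was 2.37 (limma, adjusted p = 0.00115). That of Hspa1a was 1.38 (limma, adjusted p = 0.105) and that of Hspd1 -0.47 (limma, adjusted p = 0.538), and neither passed. The score was 2.00 to 2.68 in fat pads, against -0.94 to 0.15 in E+P glands. Since it nearly follows the groups, this fit cannot separate tissue makeup from other differences of the pads. No fit held the luminal score.

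**Figure D3:**
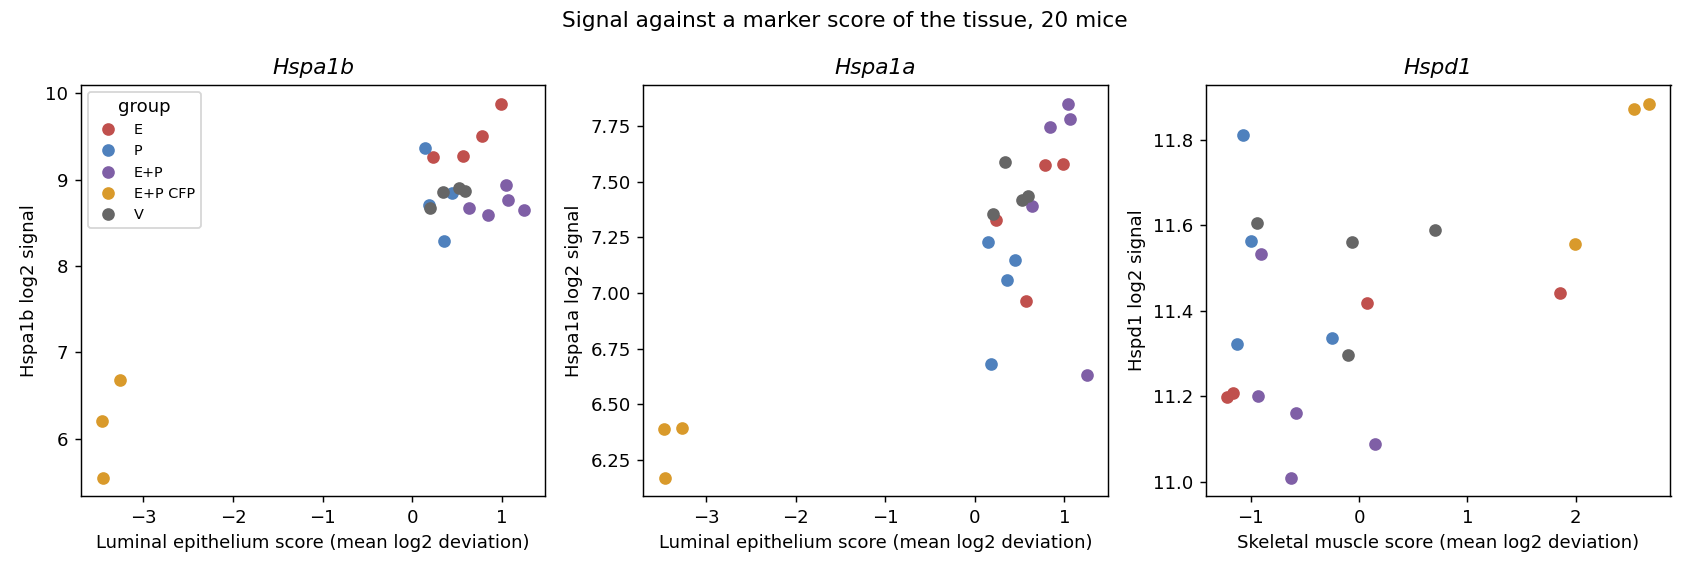
Log2 signal of Hspa1b and Hspa1a against a luminal epithelium score, and of Hspd1 against a skeletal muscle score, in the 20 animals coloured by group; a score is the mean log2 deviation of the list's markers from their mean over all animals. The fat pads stand apart at luminal scores from -3.46 to -3.27, where all glands lie from 0.14 to 1.25, and at muscle scores from 2.00 to 2.68, which E 1 approaches at 1.85.

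Among whole glands, Hspa1b and Hsp90aa1 were separated from V in E glands and Hspa8 in E+P glands, without passing the test. Hspa1b had signals of 728, 615, 620.3 and 943 in E glands, against 480.3, 407, 464 and 467 in V glands. Every E gland was above every V gland, at 1.58-fold on the mean, but the log2 difference of 0.66 ± 0.21 did not pass (SE, limma, adjusted p = 0.219). P glands had 418, 313, 661 and 462, and E+P glands lay between 387 and 491, both spanning the V values. E+P glands were all below the E glands, as was true of 1 of the 12 probe sets and of 1.85% of all (4.35% in either direction), with a log2 difference of -0.76 ± 0.20 (SE, limma, adjusted p = 0.191), and the 2 comparisons share the E glands. The interaction, the effect of progesterone with estrogen minus that without, was -0.74 ± 0.30 on the log2 scale (SE, limma, adjusted p = 0.336).

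Hsp90aa1, the inducible cytosolic Hsp90, gave 1185, 1262, 1110.3 and 1068 in E glands, against 866, 621, 760.3 and 939 in V glands. These groups did not overlap either, and the log2 difference was 0.55 ± 0.24 (SE, limma, adjusted p = 0.366). In P and E+P glands it ranged from 729.5 to 1656 and from 821 to 1627, overlapping V. Non-overlapping probe sets among the 12 in E against V were these 2, both higher, where 3.69% of all tested probe sets were wholly higher and 7.56% did not overlap in either direction. The share called in that comparison was 0.178% over all probe sets. 

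Other measures also differed between E and V glands, the luminal and lymphocyte sums with overlap and the others given here without. The log2 ratio of 3′ to 5′ Gapdh control signal, which rises as RNA degrades, was 0.30 to 0.75 in E glands, against 0.95 to 1.77 in V glands, without overlap. Brown adipocyte markers summed to 410 to 495 in E glands, against 995 to 1311 in V glands, with 2 of 6 tested markers lower (limma, adjusted p below 0.05). Endothelial markers summed to 1503 to 1791 in E glands, against 1997 to 2882 in V glands, with 1 of 8 lower by the same test. Mitosis markers summed to 854 to 1502 in E glands, against 468 to 733 in V glands, with 1 of 9 higher. Of the luminal markers 1 of 11 was higher, with sums of 4413 to 8648 in E glands, against 3829 to 5077 in V glands. Lymphocyte and plasma cell markers summed to 1676 to 7267 in E glands, against 417 to 3068 in V glands, where V 4 alone was high, and none of 12 passed. With the Gapdh ratio as a term in the model, the log2 difference of E against V was 0.61 for Hspa1b (limma, adjusted p = 0.418) and 0.79 for Hsp90aa1 (limma, adjusted p = 0.304). With the lymphocyte score it was 0.64 for Hspa1b (limma, adjusted p = 0.528) and 0.25 for Hsp90aa1 (limma, adjusted p = 0.855). The part of the other lists in these values was not tested.

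Hspa8, the Hsp70 made at all times, had signals of 1635, 1704, 1721, 1628 and 1853 in E+P glands, against 1422, 1314, 1263 and 1536 in V glands. All E+P glands exceeded all V glands by a small margin, and the log2 difference was 0.31 ± 0.11 (SE, limma, adjusted p = 0.28). Its P glands were spread from 1378 to 2205, with a log2 difference from V of 0.33 ± 0.12 (SE, limma, adjusted p = 0.482). Its E glands, from 1503 to 1679.8, overlapped V. In E+P against V, 0.46% of all probe sets were called and 4.41% did not overlap. Of the 12 probe sets there, 3 had an unadjusted p below 0.05, those of Hspa8, Hspd1 and Dnajb1 on type C. Hspa8 alone lay wholly above V (2.45% of all did), and the type C probe set of Dnajb1 alone lay wholly below it (1.96% of all). Mitosis markers summed to 1092 to 2693 in E+P glands, against 468 to 733 in V glands, with 5 of 9 higher (limma, adjusted p below 0.05). Luminal markers summed to 5211 to 8016, against 3829 to 5077, with none of 11 called. By the same test 1 of 10 immediate early genes was higher, and 2 of 8 endothelial and 1 of 6 brown adipocyte markers were lower. The part of these shifts in the values of Hspa8 and Dnajb1 was not tested.

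For Hspa1a no hormone comparison passed either, and its differences were not tested against those of Hspa1b. Its signals were 191, 161, 125 and 191 in E glands and 103, 133, 150.1 and 142 in P glands, against 171, 164, 192 and 173 in V glands. Every P gland was below every V gland, the only member probe set of which this was true, with a log2 difference of -0.42 ± 0.22 (SE, limma, adjusted p = 0.642). In P against V none of the 23062 probe sets tested was called (0%), 8.05% had an unadjusted p below 0.05 3.89% did not overlap and 2.06% lay wholly below V; 2 of the 12, Hspa8 and Hsph1, had an unadjusted p below 0.05. The E glands of Hspa1a overlapped V, and their log2 difference was -0.09 ± 0.22 (SE, limma, adjusted p = 0.913). Between E+P and P glands it was 0.45 ± 0.20 (SE, limma, adjusted p = 0.4).

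The cochaperones showed no separation that passed. Hsph1, an Hsp110 protein that releases nucleotide from Hsp70, had 153, 185, 415 and 145 in P glands, against 138, 147, 77.2 and 119 in V glands. P 3 was high and V 3 low, and the log2 difference of 0.80 ± 0.29 (SE, limma, adjusted p = 0.484) ran from 0.45 to 0.96 as single animals were left out. Its E glands were from 124 to 225 and its E+P glands from 138 to 180.5. Dnajb1, a J protein that delivers substrates to Hsp70, had 112, 139, 128 and 141 in E glands, against 121, 120.2, 79.7 and 93.1 in V glands. E 1 lay below 2 of the V glands, and the log2 difference was 0.35 ± 0.19 (SE, limma, adjusted p = 0.478). Its second tested probe set, on type C, was 0.02 ± 0.33 in the same comparison (SE, limma, adjusted p = 0.99). That probe set was lower in all 5 E+P glands, at 82.6 to 133, than in the V glands, at 139 to 205. The log2 difference there was -0.69 ± 0.31 (SE, limma, adjusted p = 0.422), while the first probe set gave 0.11 ± 0.18 (limma, adjusted p = 0.894).

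The small heat shock proteins hold unfolded proteins without using ATP. Hspb1, known as Hsp25 in the mouse, was read by a dim probe set on type C with the same suffix as that of Cryab. Its signals were 119, 24.2, 148, 11.4 and 58.3 in E+P glands, against 9.59, 29.3, 107 and 103 in V glands. E+P 4 and V 1 lay at or below the floor of 19.8 and were set to it before the test. The SD within groups was 0.90 to 1.42 on the log2 scale, all groups overlapped, and the 95% interval of the log2 difference of E+P against V ran from -1.34 to 1.59. The type A probe set of Hspb1 was at the floor in 17 of 20 animals and was not tested. Cryab had 89.6, 77.2, 58.7 and 57.5 in E glands and 77.4, 75.5, 90.3 and 86.0 in P glands, against 59.5, 71.1, 89.4 and 83.1 in V glands, all overlapping. Its log2 differences from V were -0.11 in E, 0.13 in P and -0.24 in E+P glands, each with an adjusted p of 0.784 or more (limma).

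The 2 mitochondrial genes did not pass among glands. Hspd1 had 2781, 2365, 2735 and 2349 in E glands and 2562, 2587, 3590.3 and 3026 in P glands, against 3114, 3019.6, 3080.4 and 2516 in V glands. All of these overlapped. E+P glands, at the values given above, differed from V by -0.32 on the log2 scale (limma, adjusted p = 0.348), with E+P 2 and V 4 in the other group's range. Hspe1 ranged from 641 to 826 in E glands, 628 to 1155 in P glands and 666 to 1018 in E+P glands, against 640.3 to 805 in V glands. Its log2 differences from V were 0.06, 0.22 and 0.17, with adjusted p-values of 0.759 or more (limma).

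Several of the genes varied together between animals of 1 group, and P 3 was the animal in which they did so most. It was the highest of all 20 animals for Hspa8, Hsp90aa1, Hsph1 and Hspe1, 4 of the 10 genes; over all 12232 genes it was the highest for 8.79% and the lowest for 9.11%. Against its group mean it stood 1.03 higher for Hsph1, 0.70 for Hsp90aa1, 0.56 for Hspa1b, 0.48 for Hspe1, 0.34 for Hspa8 and 0.30 for Hspd1, all on the log2 scale. E+P 2 was high for Hsp90aa1, Hspd1 and Hspe1 but lowest of its group for Hspa1a. The Gapdh 3′ to 5′ log2 ratio was 1.36 in P 3, against 0.40 to 1.22 in the other P glands. After each group's mean was subtracted, Pearson's r over the 20 animals was 0.79 between Hspd1 and Hspe1, 0.72 between Hspa8 and Hsp90aa1 and 0.38 between Hspa1a and Hspa1b. Other pairs of the 10 genes were negative, down to -0.33 between Cryab and Dnajb1. How often other pairs of genes reach such values was not tested. These correlations describe animals that share groups and arrays, and P 3 contributes to each.

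**Figure D4:**
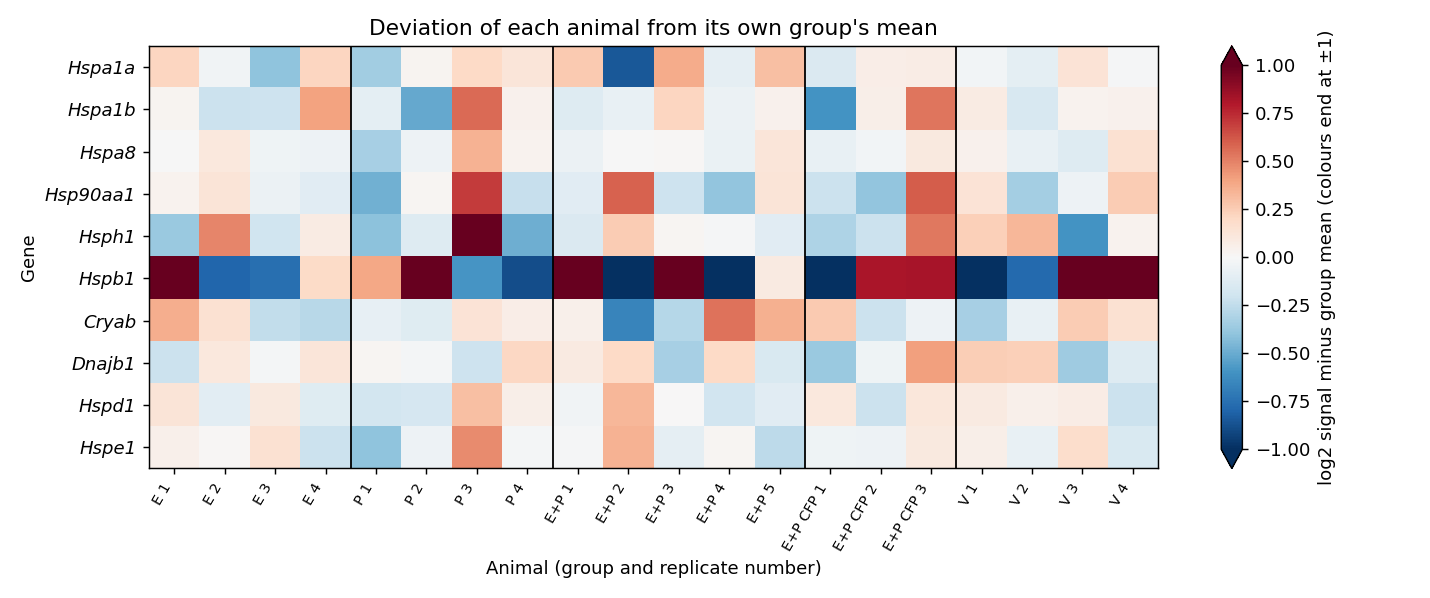
Log2 signal minus the mean of the animal's own group, by gene (rows) and animal (columns, from E at the left to V at the right), with colours ending at 1 in either direction. P 3 is above its group's mean for 8 genes, and Hspb1 varies most in every group.

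The genes outside the family whose values were most like those of a member after the same subtraction were ranked by Pearson's r over 20 animals, given as a description. Each value is at the top of all other tested genes, and how high such top values reach by chance was not tested. For Hspe1 they were Hikeshi (0.88), whose protein carries Hsp70 into the nucleus during heat stress, Wdr86 (0.85) and Wdr82 (0.85). For Hsp90aa1 they were Nop56 (0.89), Npm1 (0.88) and Hnrnpa2b1 (0.87), and for Hspd1 Zranb2 (0.90), Snhg5 (0.86) and Tmem47 (0.85). For Hspa1b they were Angel2 (0.91), Tcf12 (0.89) and Smg1 (0.84), and for Hspa1a Pfkfb3 (0.86), 1700034J05Rik (0.83) and Mtfr1 (0.80). Those of Hspa8 were Zfp24 (0.83), Gtf2a2 (0.82) and Srsf9 (0.80), and those of Hsph1 Vps35l (0.89), Zc3h13 (0.88) and Eml4 (0.82). Dnajb1 was nearest to Fbxl6 (0.84), Nup37 (0.81) and Nr2c2 (0.81). The small heat shock proteins had lower values, with Shank1 (0.76), Ppp3r2 (0.75) and Gm36365 (0.73) for Hspb1 and Man2a1 (0.77), Inafm2 (0.76) and Cyp2c38 (0.74) for Cryab.

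The wider folding machinery was described by 7 lists of 67 further genes, 56 of them tested. In E+P glands against E+P CFP fat pads, 2 rose and 7 fell, 16.1% of the 56, where 10.5% of all genes tested were called. Over all 12232 genes tested, 846 were higher and 434 lower in E+P glands. The mitochondrial chaperones and proteases had 3 of 9 tested members called, all lower: Hspa9, the mitochondrial Hsp70 (-0.60), Clpb, a disaggregase (-0.70), and Clpp, the peptidase of a mitochondrial protease (-0.44). Hspa9 had signals of 1107 to 1571 in E+P glands, against 1532 to 2162 in E+P CFP fat pads, an overlap of 1 gland. Of the small heat shock proteins, Hspb8 fell by 0.90 and was the 1 gene of the 56 (1.79%) also called in fat pads against V, where it was 1.00 higher and 4.10% of all genes were called. Its signals were 222 to 339 in E+P glands, against 445 to 559 in E+P CFP fat pads. Among J proteins and exchange factors of Hsp70, Bag2 rose by 0.74, while Bag4 fell by 0.94 and Dnajb2 fell by 0.53. In the cytosolic chaperonin, which folds actin and tubulin, Cct5 rose by 0.44, and 7 of its 8 subunits had a positive difference. Hspa12b, a distant Hsp70, fell by 0.73. The part of tissue makeup, with the higher muscle signal of the fat pads, in the values of these further genes was not tested.

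**Figure D5:**
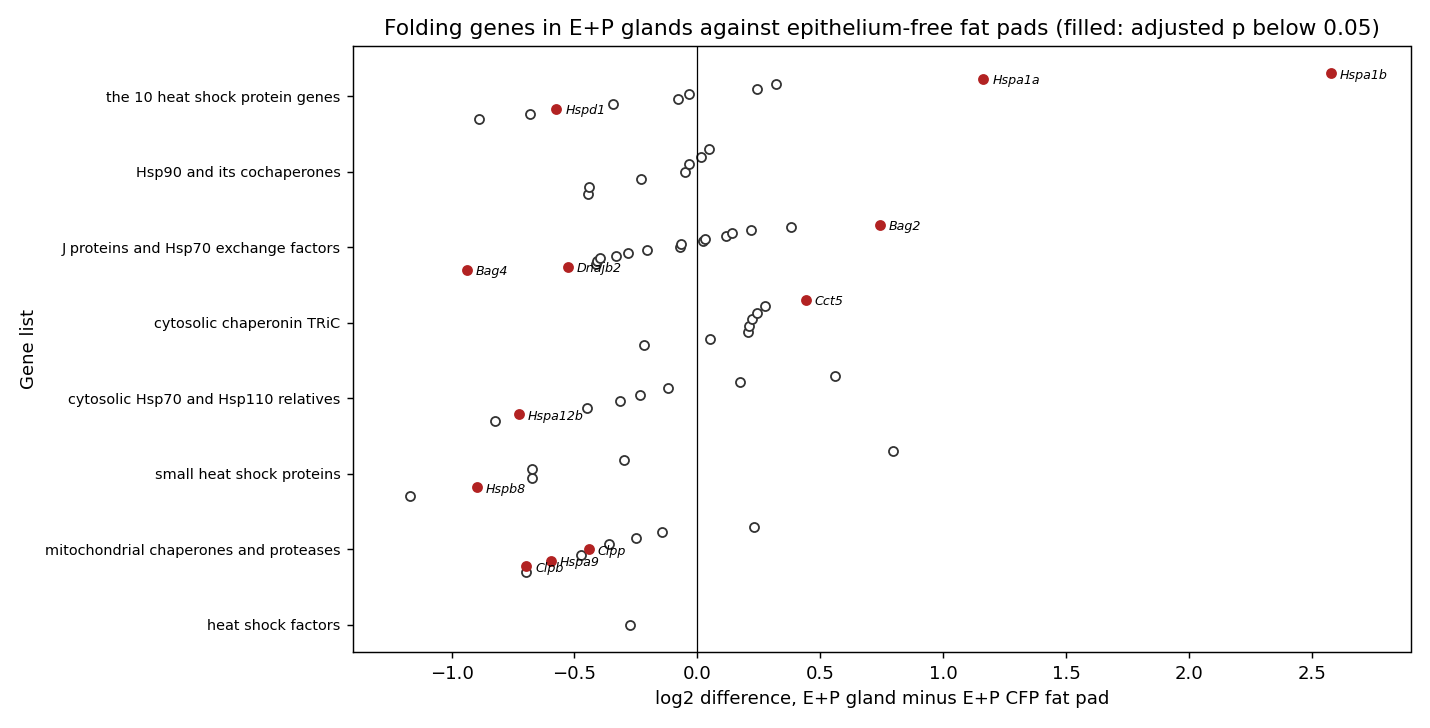
Log2 differences of E+P glands minus E+P CFP fat pads for the 10 heat shock protein genes and the 56 tested genes of 7 further lists, 1 row a list and 1 point a gene, filled where the adjusted p was below 0.05. Hspa1b and Hspa1a stand farthest to the right, and the called mitochondrial genes lie to the left of 0.

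Among the hormone comparisons none of the 56 was called by limma, where 0.204%, 0%, 0.646%, 0.229%, 0.507% and 0.0736% of all genes were, with the comparisons in the same order as above. At an unadjusted p below 0.05 there were 10, 6, 9, 5, 7 and 8 of the 56, where 12.5%, 7.6%, 12.3%, 10.6%, 12.8% and 11.7% of all genes were. The smallest adjusted p ran from 0.107 in E+P against P to 0.408 in P against V (limma), and the medians of the 56 log2 differences lay between -0.08 and 0.03. All 8 subunits of the cytosolic chaperonin had positive differences both in E and in E+P glands against V, with medians of 0.15 and 0.27. The smallest of them were 0.01 and 0.002. Mitochondrial chaperones and proteases had 8 of 9 negative in both comparisons, which share the V animals. In the interaction all 8 tested relatives of Hsp70 and Hsp110 were negative. Of the heat shock factors and their binding protein, 3 of 5 were on the arrays and only the binding protein Hsbp1 was bright enough to be tested. Its log2 difference was -0.28 in E+P glands against fat pads (limma, adjusted p = 0.296). The 10 genes themselves had median log2 differences of 0.26 in E, 0.18 in P and 0.12 in E+P glands against V, where the medians over all tested genes lay within 0.02 of 0. Of the 10, 7 were positive in E, 6 in P and 7 in E+P against V; with the same V animals in all 3, these counts are not separate.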

How the data were processed

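Signal intensities on a linear scale, deposited by the authors, were made by MAS5, which the submitters' processing notes name without a version. The labels' protocols give Ultraspec extraction and biotin labelling of 2 µg of RNA. The 60 arrays are 3 types (A, B and C) for 20 animals, joined by group and replicate number; the labels do not say that equal numbers on different types are 1 animal, which bears on values that set type C (Hspb1) beside type A. Trimmed means were 150.03 to 150.1 on all arrays, so scaling had been done before deposit. Nothing gives a depth for arrays, and the number of animals limits the precision.

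Each array was scaled to the common 2% trimmed mean of its type and floored at the type's 25th percentile (13.6, 28.6 and 19.8 for A, B and C). After log2, probe sets above the 50th percentile in at least 3 animals were tested. A single limma 3.58.1 model in R 4.3.3 was fitted to each array type on its own, giving every group its own mean (5 groups), with empirical Bayes moderation that follows the mean intensity. P-values were adjusted by Benjamini-Hochberg over all 23062 tested probe sets in each of 8 comparisons. The fit was tested on simulated data. Alternatives covered scaling, floor, filter, variance model, covariates, the replicate number as a factor, and leaving out each animal.

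Of 36899 probe sets, 29131 had 1 symbol in the platform annotation. Each gene was read from 1 tested probe set, preferring type A, then B, then C; among those, 1 with a plain suffix and, last, the brightest. All 10 members were named, with up to 4 called genes of each further list and the 3 most alike genes of a member, here after subtracting group means. Members and lists were chosen with earlier results of these data known. The labels call the replicates biological; they do not say outright that the fat pads came from other mice than the E+P glands. The pads were treated as separate animals, because the design text gives 20 animals in all and the groups reach that number only with them.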

Additional observations from a re-analysis of the deposited data

Results flagged for a closer look

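In V glands, Hspd1 had a signal of 2516 in V 4, against 3019.6 to 3114 in the other 3 animals. The gap made up 0.855 of the group's range, above Dixon's 95% critical value for 4 animals. It was the 1 case among the 40 sets of values (10 genes in the 4 groups of 4 or 5 animals) looked at in this way, and chance gives about 5% of such sets. V 4 was also the only V gland with a high lymphocyte and plasma cell score, at 1.25 against -1.36 to -1.34 in the other V glands. Its Gapdh 3′ to 5′ log2 ratio was 1.77, against 0.95 to 1.14 in the other V glands. The part of either in the low Hspd1 value was not tested.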

How the results depend on the processing

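All 37 alternatives were run. In each of the 6 hormone comparisons, no member probe set was called in any of them (limma); the smallest adjusted p was 0.0615, for Hspa1b in E against V with array weights. Hspa1b kept both fat pad calls throughout, at log2 differences of 2.28 to 2.84 against E+P CFP and -2.94 to -2.36 against V. The member probe sets called in E+P against E+P CFP numbered 5 with quantile normalization, Hspa8 (0.45) and Cryab (-0.85) being added, and 1 with the skeletal muscle score in the model. They numbered 4 with median scaling and 4 without E+P 4, Cryab being added in both (-0.91 and -0.81), whereas with the muscle score Cryab stood at -0.07. In E+P CFP against V they numbered 1 with that score and 1 without V 4, E 1 and E+P CFP 1 together, in place of 2. Hspa1a missed the threshold with the muscle score (1.38 and -1.31) and, against V, without the 3 animals (-1.06, adjusted p = 0.0912). Hspd1 missed it with the muscle score (-0.47), without E+P CFP 1 (-0.52, adjusted p = 0.072), without E+P CFP 3 (-0.52, adjusted p = 0.0598) and without the 3 animals (-0.52, adjusted p = 0.0734). Its sign turned on the other tested probe set (a log2 difference of 0.0401). The cause was not tested. Leaving out each animal in turn left the counts in the range of 2 to 4 and 2 to 2 for these comparisons. Same-numbered animals of the E, P, E+P and V groups deviated together at over 0.1 in 2 of 24 pairs of samples. With so few animals a group, such values cannot exclude a pairing. Fat pads were not in these pairs, so whether a pad and an E+P gland share an animal was not tested. With the replicate block, 3 and 2 member probe sets were called in E+P against E+P CFP and in E+P CFP against V. Dim probe sets (Hspb1, and 5 untested ones) limit what can be said of those genes. The muscle score nearly follows the split of fat pads from glands, so fits with it cannot separate them.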
